A study of Mus musculus with 3 samples.

Results

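The genes described here are 33 listed genes of glycolysis and of the cellular response to low oxygen, of which 30 were read on the arrays, among 23185 named genes in all. The list was taken by gene symbol: 16 enzymes of the glycolytic route and lactate formation, 6 genes of glucose and lactate transport and of flux control, 4 regulators of the hypoxia response and 7 of its targets. Gpi1, Gapdh and Eno1, all glycolytic enzyme genes, are not analysed here, which left 13 enzyme genes, and all 17 of the others were measured. The cells were long-term haematopoietic stem cells of mouse bone marrow (Lin- ckit+ Sca+ Flk2- CD48- CD150+). Strain, sex and age are not given. All 3 groups were sorted in the same way, held overnight in Stemspan SFEM medium and harvested 2 hours after γ-irradiation. They differed in the dose, which was 0 Gy (unirradiated), 0.02 Gy (low dose) or 2.5 Gy (high dose). Each dose has 1 array, so every difference below is between single arrays, has no replicate check and was not tested. Nor is the oxygen level of the culture stated.

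Glycolysis splits glucose into pyruvate in the cytosol, and lactate dehydrogenase then turns pyruvate into lactate, which regenerates the cofactor that the route consumes. When oxygen is short, the prolyl hydroxylases that mark HIF-1α for destruction lose activity. HIF-1α then pairs with ARNT and raises transcription of most glycolytic genes and of genes for vessel growth, mitochondrial turnover and collagen modification. Quiescent haematopoietic stem cells live in a bone marrow niche with little oxygen and are known for relying on glycolysis, with pyruvate dehydrogenase kinases holding pyruvate back from the mitochondria. HIF-1α itself is controlled mainly at the level of protein stability, which an array does not read.

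The HIF dimer binds DNA at a short core, ACGTG or GCGTG. RefSeq promoter sequence (build GRCm38.p6) was found for 28 of the 30 genes, and 27 of the 28 held at least 1 such core on either strand within the 250 bases before a start site. Over all genes in that table the share was 41.5%, and over single promoters it was 38.6% in all genes against 82.5% of the 40 promoters of the listed genes. The listed genes include many known HIF targets, so this share describes the list and is no result of the arrays. It was not set against promoters of like base composition, and the reason for it was not tested. The 250 bases before the outermost start are shown for the 3 genes that were highest at 2.5 Gy relative to unirradiated cells and for Pfkfb3, the lowest of the genes with a mean above the median gene. They run 5′ to 3′ along each gene, and capitals mark the cores, including their reverse complements CACGT and CACGC. They lie at chr10:59951771-59952020 (Ddit4, minus strand), chr11:78322823-78323072 (Aldoc, plus strand), chr17:46032378-46032627 (Vegfa, minus strand) and chr2:11553930-11554179 (Pfkfb3, minus strand).
Ddit4: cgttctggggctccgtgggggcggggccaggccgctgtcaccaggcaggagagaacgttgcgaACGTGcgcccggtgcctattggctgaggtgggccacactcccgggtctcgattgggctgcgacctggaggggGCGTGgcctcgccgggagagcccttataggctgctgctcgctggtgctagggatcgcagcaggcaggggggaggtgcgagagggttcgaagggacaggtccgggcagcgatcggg
Aldoc: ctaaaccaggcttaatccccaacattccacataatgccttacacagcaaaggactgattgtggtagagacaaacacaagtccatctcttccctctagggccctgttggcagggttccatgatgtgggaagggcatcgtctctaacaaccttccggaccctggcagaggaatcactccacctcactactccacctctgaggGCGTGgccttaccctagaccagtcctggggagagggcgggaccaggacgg
Vegfa: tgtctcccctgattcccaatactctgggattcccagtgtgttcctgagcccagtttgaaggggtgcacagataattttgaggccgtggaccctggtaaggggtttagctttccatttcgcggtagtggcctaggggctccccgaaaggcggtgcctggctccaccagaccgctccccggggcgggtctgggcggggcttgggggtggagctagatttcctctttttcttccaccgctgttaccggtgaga
Pfkfb3: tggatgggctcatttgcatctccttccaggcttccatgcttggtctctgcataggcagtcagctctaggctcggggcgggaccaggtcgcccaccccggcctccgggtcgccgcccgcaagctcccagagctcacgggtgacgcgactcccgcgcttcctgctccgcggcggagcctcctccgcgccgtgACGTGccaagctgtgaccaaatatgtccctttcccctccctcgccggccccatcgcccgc

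Ddit4 carried 2 cores, which began 187 and 115 bases before its start. Aldoc carried 1, which began 50 bases before, and so did Pfkfb3, at 60 bases. The window shown for Vegfa held 0, and that before its second RefSeq start held 2, beginning 218 and 211 bases before it. This second window lies downstream of the first start, at chr17:46025164-46025413. Vegfa counts among the 27 genes with a core through that window alone. The windows before the second starts of Aldoc and Pfkfb3 held 1 and 3. A match of 5 letters is a description of the sequence and says nothing of whether a factor was bound.

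No listed gene differed by 2-fold between any pair of arrays: 0 of 30 were at least 2-fold higher and 0 at least 2-fold lower in each of the 3 comparisons. The background over all named genes at that fold was 1.12% up and 1.17% down for low dose minus unirradiated. It was 0.94% up and 0.638% down for high dose minus unirradiated, and 1.22% up and 0.996% down for high dose minus low dose. With 30 genes, a count of 0 is close to those shares. At a smaller fold of 1.5, 4 of 30 genes were higher at 2.5 Gy than in unirradiated cells (Ddit4, Aldoc, Vegfa and Hk2), where 4.42% of all named genes were, and 2 were lower (Pgam1 and Pfkfb3), where 4.12% were. At 0.02 Gy, 1 gene was at least 1.5-fold higher (Arnt) and 2 were lower (Pfkfb3 and Pgam1), against 5.43% of all named genes in each direction. Between the doses, 3 were at least 1.5-fold higher at 2.5 Gy (Pgk1, Vegfa and Ddit4) and 3 lower (Pdk1, Bnip3l and Egln3), against 5.06% and 4.84%.

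**Figure D1:**
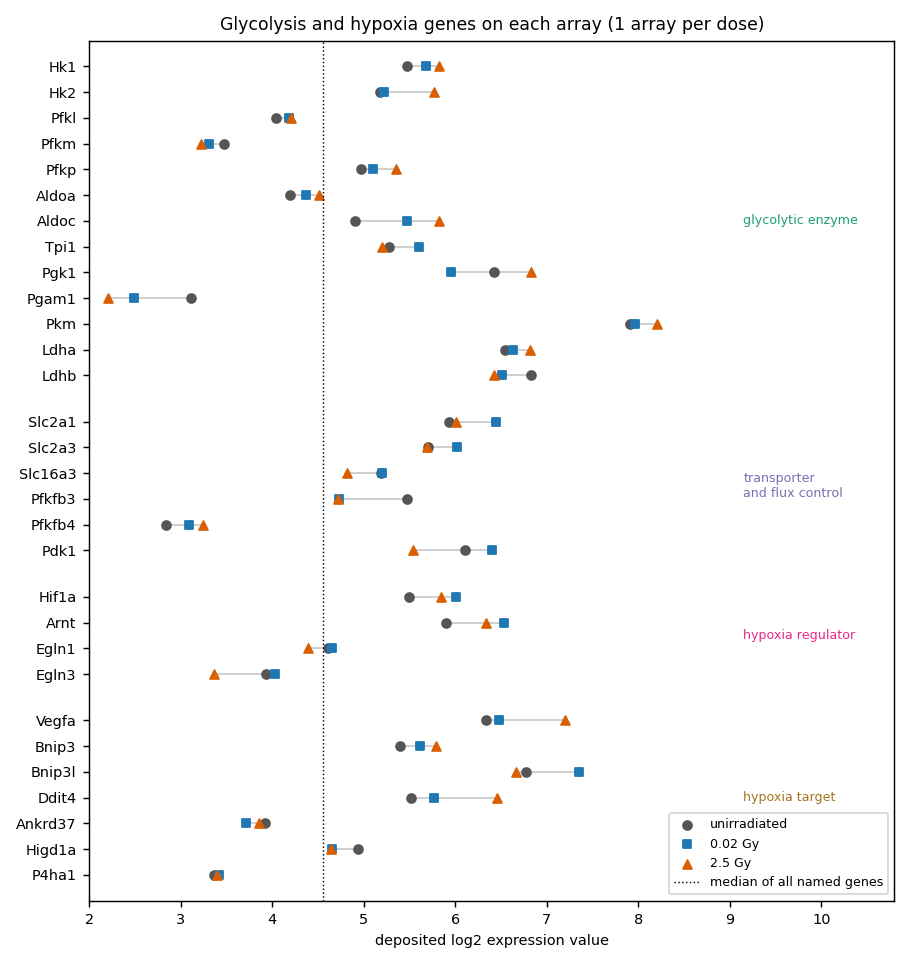
Deposited log2 expression values (horizontal axis) of the 30 measured genes on the unirradiated (circle), 0.02 Gy (square) and 2.5 Gy (triangle) arrays, 1 array per dose, with the median of all named genes, 4.55, as a dotted line. The values of a gene span at most 0.94, and 9 genes have a mean below the dotted line.

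Levels are the deposited log2 values in the order unirradiated, low dose, high dose, and differences are on the same log2 scale. The middle 95% of all named genes lay between -0.77 and 0.79 for low dose minus unirradiated, between -0.68 and 0.72 for high dose minus unirradiated, and between -0.74 and 0.75 for high dose minus low dose. Outside these ranges were 0, 5 and 2 of the 30 genes. The 5 at 2.5 Gy were Ddit4, Aldoc, Vegfa, Pfkfb3 and Pgam1, and the 2 between the doses were Pgk1 and Pdk1. The arrays also differed with level: in level decile 10, the brightest, the median of all genes was 0.19 for low dose and 0.14 for high dose minus unirradiated, against -0.08 and -0.07 in decile 5. Of the 30 genes, 6 lie in decile 10 and 6 in decile 9, so values after loess on level are given where they bear on a result.

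The glycolytic enzyme genes were modestly higher at 2.5 Gy than in unirradiated cells. The median difference of the 13 was 0.30, and 9 were above 0 and 4 below, while the median of all named genes was -0.02 and 46.6% were above 0. After loess on level the median of the enzyme genes was 0.23. At 0.02 Gy their median was 0.09, again with 9 above 0 and 4 below, and after loess it was 0.03. For 11 of the 13 genes the low-dose value lay between the other two, whereas the low-dose array was in the middle for 30.6% of all named genes. In 8 of these 11 the order ran upward with dose and in 3 (Pfkm, Pgam1 and Ldhb) downward. The exceptions were Tpi1 and Pgk1. These counts are of the deposited values and depend on the scaling. After loess on level, low dose minus unirradiated was -0.18 for Pkm and -0.08 for Ldha, so their low-dose value was the lowest. Quantile normalization also put it lowest. After median centring, Pfkl at 2.5 Gy was just below its low-dose value (-0.0019).

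Aldoc, an aldolase that splits fructose bisphosphate, had the largest increase among the enzyme genes. It was at 4.91, 5.47 and 5.83, a difference of 0.92 (1.89-fold) at 2.5 Gy and 0.56 at 0.02 Gy. The unirradiated array was the lowest, and both irradiated arrays were above it. Aldoa, the more broadly expressed aldolase, was at 4.19, 4.37 and 4.51, in the same order with a smaller span of 0.31. Its values were below the median of all named genes on every array.

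Hexokinase takes glucose into the route by phosphorylating it. Hk2, its inducible form, was at 5.18, 5.22 and 5.77, so the high-dose array stood apart and the other two were within 0.04. The difference at 2.5 Gy was 0.59 (1.5-fold) against unirradiated cells and 0.55 against the low dose. Hk1, the more constant form, was at 5.47, 5.68 and 5.83, which put the unirradiated array lowest.

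Phosphofructokinase commits sugar to the route, and its 3 subunit genes did not move together. Pfkp, the platelet-type subunit, was at 4.98, 5.10 and 5.35 and was 0.38 higher at 2.5 Gy. Pfkl, the liver-type subunit, was at 4.05, 4.19 and 4.20. Pfkm, the muscle-type subunit, ran the other way at 3.48, 3.31 and 3.23, and both Pfkl and Pfkm were below the median of all named genes on every array.

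Further down the route, Pgk1, which makes the first ATP of glycolysis, was at 6.42, 5.95 and 6.82. The low-dose array was the lowest of the 3, so the difference was -0.47 at 0.02 Gy, 0.40 at 2.5 Gy and 0.88 (1.83-fold) between the doses, the last of these beyond 98.4% of all named genes. Tpi1, which interconverts the 3-carbon sugars, had the opposite shape at 5.28, 5.60 and 5.20. Pkm, which makes pyruvate, was at 7.91, 7.97 and 8.20, with a difference of 0.30 at 2.5 Gy that was 0.10 after loess, and one of 0.06 at 0.02 Gy that turned to -0.17 after quantile normalization. Pgam1, a mutase of the lower route, was at 3.11, 2.49 and 2.21. Its difference of -0.91 at 2.5 Gy was among the lowest 0.867% of all named genes, but all 3 of its values were below the median of all named genes, and whether they exceed background cannot be read from the deposited values.

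The subunit genes of lactate dehydrogenase differed in opposite directions at 2.5 Gy, and in the deposited values also at 0.02 Gy. Ldha, whose product favours lactate formation, was at 6.54, 6.64 and 6.81, higher by 0.09 and 0.27. Ldhb, whose product favours the reverse reaction, was at 6.82, 6.51 and 6.42, lower by 0.31 and 0.40. Relative to Ldhb, Ldha was therefore higher by 0.40 at 0.02 Gy and by 0.67 at 2.5 Gy. At 2.5 Gy the difference of Ldha was 0.13 after quantile normalization and 0.14 after loess. After the same scalings its low-dose difference was -0.08 in each case, so its direction at that dose turned with the scaling.

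Several of these genes have processed copies in the genome, and which copies the probes read is not known here. RefSeq names 3 pseudogenes of Ldha, 2 each of Aldoa, Pgk1 and Pgam1, and 1 of Ldhb, so their values are uncertain in that respect. Without these 5 genes the median difference of the other 8 enzyme genes was 0.32 at 2.5 Gy and 0.13 at 0.02 Gy.

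**Figure D2:**
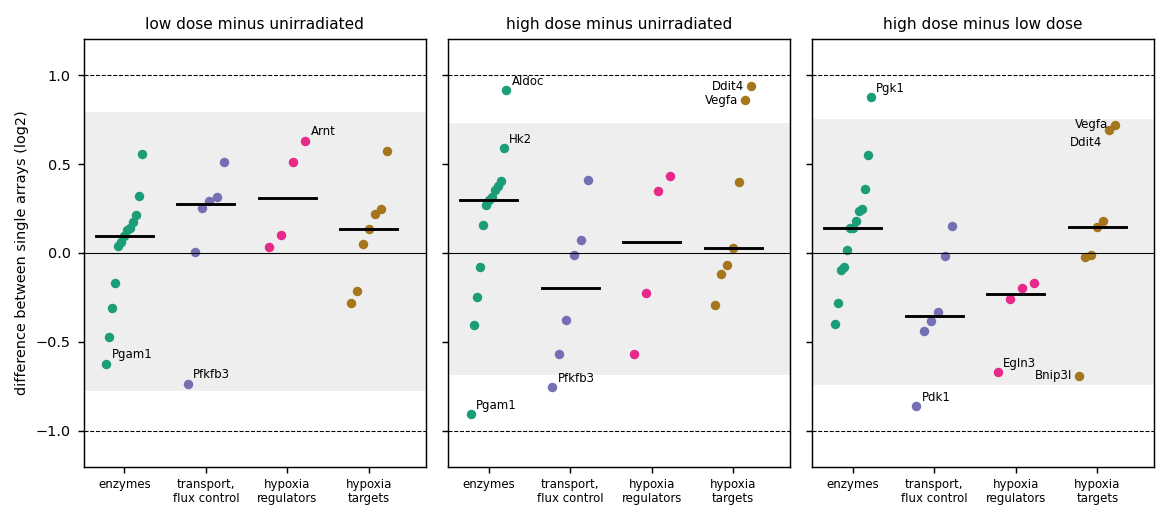
Differences between single arrays (log2, vertical axis) for the 30 genes in 4 groups, with black bars for group medians, grey bands for the middle 95% of all named genes and dashed lines at 2-fold; genes at least 1.5-fold apart are named. The enzyme median is 0.09, 0.30 and 0.14 from left to right, and that of the transport and flux control genes is 0.27, -0.20 and -0.36.

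The 6 transport and flux control genes had a different shape: 4 of them were highest on the low-dose array, Slc16a3 by only 0.006. The group median was 0.27 at 0.02 Gy, with 5 of 6 above 0, and -0.20 at 2.5 Gy, with 2 of 6 above 0. Of all named genes, 47.4% and 46.6% were above 0 in these comparisons. The group mean at 0.02 Gy was 0.11, with Pfkfb3 at -0.74. Between the doses the group median was -0.36, and 5 of 6 genes were lower at 2.5 Gy, while the median of all named genes was 0.00. After loess on level the low-dose median was 0.22 and the high-dose median -0.22.

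Slc2a1, the widely expressed glucose transporter GLUT1, was at 5.93, 6.44 and 6.01. Slc2a3, the high-affinity transporter GLUT3, followed the same shape at 5.70, 6.02 and 5.69. In both, the unirradiated and high-dose arrays were close together, within 0.07 for Slc2a1 and 0.01 for Slc2a3 (with signs that turned under loess and median centring, respectively), and the low-dose array stood above them by 0.44 or more for Slc2a1 and by 0.32 or more for Slc2a3. Slc16a3, which exports lactate, was at 5.19, 5.20 and 4.82, so here only the high-dose array differed.

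Pfkfb3 and Pfkfb4 encode enzymes that set the level of fructose 2,6-bisphosphate, the activator of phosphofructokinase. Pfkfb3 was at 5.47, 4.73 and 4.72. Both irradiated arrays were thus lower by nearly the same amount, 0.74 and 0.75, and differed from each other by 0.02; they share the unirradiated array, so the similarity rests on that 1 array. Pfkfb4 ran the other way at 2.83, 3.09 and 3.24, below the median of all named genes on each array.

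Pdk1 encodes a kinase that inactivates pyruvate dehydrogenase and so diverts pyruvate from the mitochondria. It was at 6.11, 6.40 and 5.54, highest at the low dose and lowest at the high dose. The difference between the doses was -0.86 (1.82-fold lower at 2.5 Gy), at percentile 1.64 of all named genes. Against unirradiated cells it was 0.29 at 0.02 Gy and -0.57 at 2.5 Gy.

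The 4 regulators of the hypoxia response were all highest on the low-dose array. Their median difference was 0.31 at 0.02 Gy and 0.06 at 2.5 Gy, and all 4 were lower at 2.5 Gy than at 0.02 Gy, with a median of -0.23. The low-dose array was highest for 7745 of the 23185 named genes.

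Hif1a, the oxygen-controlled subunit of HIF-1, was at 5.50, 6.01 and 5.84, higher by 0.51 at 0.02 Gy and by 0.35 at 2.5 Gy. Arnt, its constitutive partner, was at 5.90, 6.53 and 6.34, higher by 0.63 and by 0.44. In both genes the unirradiated array was the lowest, and the irradiated arrays were within 0.17 and 0.20 of each other. After loess on level the low-dose differences were 0.45 and 0.51 and the high-dose differences 0.30 and 0.34.

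The prolyl hydroxylase genes Egln1 and Egln3, whose products mark HIF-1α for destruction, did not share that shape. Egln1, the main oxygen sensor, was at 4.61, 4.65 and 4.39. Egln3, itself a HIF target, was at 3.93, 4.03 and 3.36, lower by 0.57 at 2.5 Gy than unirradiated and by 0.67 than at the low dose. The high-dose array was the lowest in both, and Egln3 lay below the median of all named genes on each array.

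Among the 7 hypoxia targets, Vegfa and Ddit4 rose most at 2.5 Gy. Bnip3 was higher by 0.40, and the others lay between -0.29 and 0.03. The group median was 0.03 at 2.5 Gy, with 4 of 7 above 0, and 0.14 at 0.02 Gy, with 5 of 7 above 0. The mean at 2.5 Gy was 0.25.

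Vegfa, the main growth factor for blood vessels, was at 6.34, 6.48 and 7.20. The first 2 arrays were within 0.14, a difference that was -0.01 after quantile normalization and -0.03 after loess, and the high-dose array was 0.86 (1.81-fold) above unirradiated and 0.72 (1.65-fold) above the low dose. Ddit4, which encodes the mTORC1 inhibitor REDD1 and is known to respond to DNA damage as well as to low oxygen, was at 5.52, 5.77 and 6.46. It was 0.94 (1.92-fold) above unirradiated and 0.69 above the low dose at 2.5 Gy, the largest increase of the 30 genes against unirradiated cells.

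Bnip3 and Bnip3l encode related receptors for the removal of mitochondria. Bnip3 was at 5.40, 5.61 and 5.79, upward with dose. Bnip3l was at 6.78, 7.35 and 6.66, with the low-dose array apart: it was 0.57 above unirradiated and 0.69 above the high dose. RefSeq names 1 pseudogene of Bnip3l.

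The other 3 targets gave no increase at either dose beyond 0.05. Higd1a, a mitochondrial protein of the hypoxia response, was at 4.93, 4.65 and 4.64. Ankrd37, a small ankyrin repeat gene, was at 3.92, 3.71 and 3.86, and P4ha1, a collagen prolyl hydroxylase, at 3.37, 3.42 and 3.40, the narrowest span of all 30 genes at 0.05. The latter pair lay below the median of all named genes on every array.

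Set against each other, enzymes and hypoxia genes (regulators with targets, 11 genes) did not separate in a stable way. The enzyme median minus the hypoxia median was -0.04 at 0.02 Gy, 0.27 at 2.5 Gy and 0.16 between the doses. At 2.5 Gy the hypoxia median was 0.03 over all 11 genes but 0.40 over the 7 with a mean above the median gene, and the enzyme minus hypoxia value then was -0.04. With means in place of medians both groups were at 0.16.

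The position of the arrays can also be read gene by gene. For each gene the array farthest from the other two was taken: it was the unirradiated array for 14 of the 30 genes (46.7%, against 33.8% of all named genes), the high-dose array for 10 and the low-dose array for 6. The unirradiated array was the lowest of the 3 for 16 of the 30 genes, against 7146 of the 23185 named genes and 4338 of the 11593 with a mean above the median gene. The median span across arrays was 0.40 for the 30 genes and 0.34 for all named genes.

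Pairs of related genes show how far members of one step can part. Pfkfb3 relative to Pfkfb4 was lower by 0.99 at 0.02 Gy and by 1.16 at 2.5 Gy. Bnip3 relative to Bnip3l was 0.87 higher between the doses. Aldoa relative to Aldoc was lower by 0.60 at 2.5 Gy, while Slc2a1 and Slc2a3 stayed within 0.19 of each other in each comparison.

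Neighbouring routes were read with 7 further gene lists, chosen like the main list with earlier results of these data known. The tricarboxylic acid cycle burns pyruvate-derived carbon in the mitochondria, and most of its genes were higher on both irradiated arrays. Of its 17 measured genes, 13 were above 0 at 0.02 Gy (median 0.27) and 14 at 2.5 Gy (median 0.28); after loess on level the medians were 0.20 and 0.14. Of all named genes 47.4% were above 0 at 0.02 Gy and 46.6% at 2.5 Gy, and of those with a mean above the median gene, where 16 of the 17 lie, 54.2% and 53.4%. At least 2-fold higher at 0.02 Gy were Ogdh, a subunit gene of the oxoglutarate dehydrogenase complex, at 5.32, 6.58 and 6.21, and Idh3a, a subunit gene of mitochondrial isocitrate dehydrogenase, at 2.86, 3.91 and 3.18, below the median gene on each array. At 2.5 Gy, Ogdh (0.89) and Suclg2, a subunit gene of succinyl-CoA synthetase (0.66), were the highest, and Idh3b (-0.27) and Sdhd (-0.26), a subunit gene of succinate dehydrogenase, the lowest.

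The pyruvate entry and lactate transport genes had 7 of 8 above 0 at 2.5 Gy (median 0.19), with Pdhb (0.42) and Pdk4 (0.37) highest and Pdha1 (-0.15) and Pdp1 (0.04) lowest. Pdha1 and Pdhb encode the 2 subunits of pyruvate dehydrogenase, and Pdha1 was at 5.55, 6.10 and 5.41, highest at the low dose as its kinase gene Pdk1 was. The pentose phosphate genes, which supply reducing power and ribose, had 6 of 6 above 0 at 2.5 Gy (median 0.17), led by Pgd (0.53) and Tkt (0.30), with Pgls (0.01) and Rpia (0.09) lowest. After loess on level the difference of Pgls was -0.11, and the list median was again 0.17. The gluconeogenesis genes had 3 of 6 above 0 (median -0.07), with Fbp1 (-0.33) and Pck2 (-0.25) lowest and G6pc3 (0.15) and Pck1 (0.14) highest. Other glycolysis genes had 6 of 17 above 0 at 0.02 Gy (median -0.09), where the 13 enzyme genes had a median of 0.09. At 2.5 Gy they had 10 of 17 above 0 (median 0.02). Pfkfb2, another gene of the fructose 2,6-bisphosphate enzymes, was highest at 5.58, 6.11 and 6.37 (0.79), followed by Pgk2 (0.25). Pklr (-0.66) and Tigar (-0.41), a phosphatase that lowers fructose 2,6-bisphosphate, were lowest. Of the genes named from these lists, Pdp1, Fbp1, Pck1, Pgk2, Pklr and Tigar had a mean below the median gene.

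**Figure D3:**
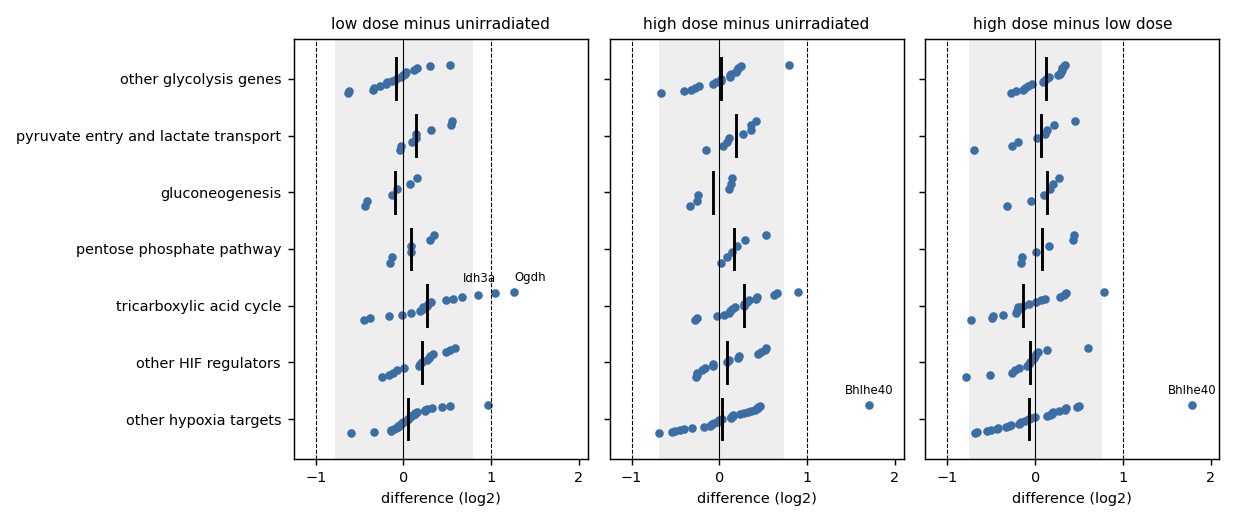
Differences between single arrays (log2, horizontal axis) for the genes of 7 related lists, with black bars for list medians, grey bands for the middle 95% of all named genes and dashed lines at 2-fold. Only Ogdh, Idh3a and Bhlhe40 lie beyond 2-fold in any comparison.

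Among other HIF regulators, 11 of 15 were above 0 at 0.02 Gy (median 0.21) and 8 at 2.5 Gy (median 0.09), and after loess on level the medians were 0.10 and -0.02. At 2.5 Gy the highest were Cited2 (0.53), which competes with HIF-1α for the coactivator p300, and Ep300 (0.52), the gene of p300 itself. The lowest were Meis1 (-0.26) and Arnt2 (-0.26). Meis1, a stem cell transcription factor known to raise Hif1a transcription, was at 7.05, 7.58 and 6.79, with the low-dose array the highest, as it was for Hif1a. At 2.5 Gy the genes parted: against unirradiated cells Meis1 was lower and Hif1a higher (0.35).

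Other hypoxia targets showed no shared direction: 17 of 29 were above 0 at 0.02 Gy (median 0.06) and 15 at 2.5 Gy (median 0.03). One gene stood out. Bhlhe40, a clock and stress repressor also known as Dec1, was at 4.65, 4.57 and 6.36, higher at 2.5 Gy by 1.71 than unirradiated and by 1.79 than at the low dose. Ero1a, an oxidase of protein folding, was at 5.03, 6.0 and 5.50 and was next at 2.5 Gy (0.46). Car9, a classical HIF target that makes carbonic anhydrase, was at 4.6, 4.01 and 3.92 and was lowest (-0.69). Plod1 (-0.54), a collagen lysyl hydroxylase, followed. Both Car9 and Plod1 had a mean below the median gene.

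The labelled cell type was read through fixed markers. Kit was at 8.58, 8.78 and 8.5 and Slamf1, the gene of CD150, at 5.24, 4.75 and 4.84, while Cd48 was at 3.62, 3.31 and 3.40, below the median gene on each array, and Flt3, the gene of Flk2, at 4.6, 4.95 and 4.93, above it on each. Of 9 measured lymphoid markers, 1, 2 and 1 were above the median gene on the 3 arrays. Of 13 measured mature myeloid markers, 9 were above it on each array, and the log2 of their summed level was 8.81, 9.43 and 9.60. S100a8 (1.30 and 1.24) and S100a9 (1.12 and 1.56) were at least 2-fold higher at both doses, and Ly6c2 (1.04) at 2.5 Gy. The myeloid list as a whole did not share that rise. Of its 13 markers, 4 were below 0 at 0.02 Gy (median 0.23) and 5 at 2.5 Gy (median 0.12). The summed level of 7 megakaryocyte and platelet markers was 9.79, 10.02 and 10.07, of 7 erythroid markers 9.0, 9.45 and 9.38, of 8 endothelial and stromal markers 8.0, 8.19 and 8.08, and of 9 lymphoid markers 7.4, 7.27 and 7.34 on the same scale. The stem cell markers summed to 9.98, 10.24 and 10.05. All of these sums except the lymphoid one were higher on both irradiated arrays than on the unirradiated array, as the enzyme median was. A sum follows its brightest genes, and many markers of these lists went the other way. At 0.02 Gy, 5 of 7 erythroid markers (median -0.07) and 6 of 8 endothelial and stromal markers (median -0.08) were lower. At 2.5 Gy, 5 of 7 megakaryocyte and platelet markers (median -0.23) and 6 of 11 stem cell markers (median -0.07) were lower. The part of these cell types in the differences above was not tested. In a bulk sample, fewer cells of a type and less RNA per cell cannot be told apart.

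**Figure D4:**
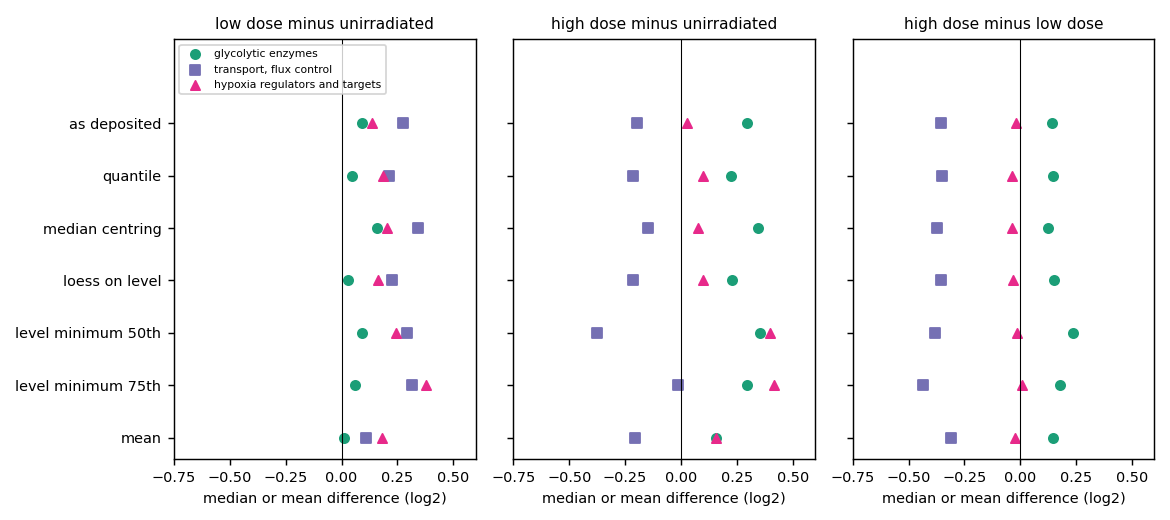
Median difference (log2, horizontal axis) of the 3 gene groups under each scaling and level minimum, and the mean in the bottom row, for each comparison of single arrays. The enzyme value stays above 0 in every setting drawn, between 0.01 and 0.35. The value of transport and flux control genes stays below 0 in both comparisons with the high dose. For high dose minus unirradiated its size depends on the level minimum: -0.38 over 5 genes at the 50th percentile and only -0.01 over 3 genes at the 75th.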

How the data were processed

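Expression was measured on 3 arrays, 1 per dose. The deposited table by the authors holds log2 values for each probe set; that scale was read from the values, and the medians of the named genes were 4.59, 4.53 and 4.55. Target was made with an Affymetrix whole-transcript kit, per the labels' protocols, and Partek is named without a version or role, per the submitters' processing notes. Background correction, normalization and summarisation: not given in the sources used here; no scanner file was used here.

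Probe sets were named through the platform annotation table: 23185 of 25206 had a symbol, and the other 2021 stayed out. For each gene, arrays were subtracted from each other and the differences described by counts, medians and fold sizes of 2 and 1.5; with 1 array per dose no test was run, and the number of arrays limits the precision. Members and lists were chosen with earlier results of these data known. All 30 measured members entered every count without a level minimum; 21 had a mean level above 4.553, which is the median over named genes. Every member is named; of each related list the genes at least 2-fold apart and the 2 highest and 2 lowest at 2.5 Gy are named, and of the markers Kit, Slamf1, Flt3, Cd48 and any gene at least 2-fold apart.

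Alternatives were level minimums at the 50th and 75th percentile, quantile normalization, median centring, loess on level (span 0.3), means, and fold sizes of 1.5 and 3. An alternative without genes that have a named pseudogene was added after seeing the data. The subtraction, the scalings and the 2-fold cut were tested on simulated arrays with seeded changes larger than 2-fold. Group medians, array orders, marker sums and smaller differences were not tested in that way. Python 3.11.15, pandas 2.3.3 and statsmodels 0.14.6 were used.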

Additional observations from a re-analysis of the deposited data

How the results depend on the processing

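With 1 array per dose, no replicate could be left out and nothing separates dose from the array that carried it. No paired analysis was possible because the arrays carry no replicates that could be matched across doses. The precision of a single array is unknown, so the standard error of the group's median, taken from the spread among its genes, served as a yardstick. Genes are not replicates, and the yardstick widens where they differ, so a value within it is not thereby stable. For transport and flux control at 2.5 Gy minus unirradiated it was 0.24, wider than the median of -0.20 itself. Values of -0.38 and -0.01 at the 50th and 75th percentile minimums therefore count as not moved. A group value was taken to have moved when it shifted by more than this standard error. Of 78 group values recomputed, 60 shifted by less than that, 15 moved by more with the same sign and 3 moved with a change of sign; all single-gene values stayed within the spread of genes of like level, although 10 of 270 changed sign, none above 0.137 in size as deposited. A further sign change lay within that error: the hypoxia median between the doses was -0.02 as deposited and 0.0070 at the 75th percentile minimum. The other 3 concern the enzyme median minus the hypoxia median at 2.5 Gy (0.27 as deposited), which was -0.043 with the level minimum at the 50th percentile, -0.12 at the 75th percentile and -0.00066 with means. For high dose minus unirradiated, the hypoxia median (0.03) was 0.40 and 0.42 at those minimums, and the enzyme value (0.30) was 0.16 as a mean. For low dose minus unirradiated, the hypoxia median (0.14) was 0.25 and 0.38 at those minimums and 0.20 after median centring; the enzyme median (0.09) was 0.16 after median centring, 0.027 after loess and 0.012 as a mean; and transport and flux control (0.27) was 0.11 as a mean. The enzyme minus hypoxia value at that dose (-0.04) was -0.15 and -0.32 at those minimums, -0.14 after quantile normalization, -0.14 after loess and -0.17 with means. At a fold of 1.5 in place of 2, where the counts were 0, they were 1 higher and 2 lower at 0.02 Gy, 4 higher and 2 lower at 2.5 Gy, and 3 higher and 3 lower between the doses; a fold of 3 gave 0. The level minimums drop dim genes by construction; otherwise the cause was not tested. The alternative without genes that have a named pseudogene, chosen after seeing the data, moved no value.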
